A study of Rattus norvegicus with 47 samples.

Results

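Transcription factors that direct the making and the activity of myeloid cells were followed in rat blood over the first day after stroke. The genes looked for were Spi1, Cebpa, Cebpb, Cebpd, Cebpe, Gfi1, Ets2, Bcl6, Runx1 and Mxd1, each found by an exact match of its symbol in the gene annotation of the array table, and of these 10 genes 9 were found, each with 1 probe set, among 27596 probe sets and 20935 gene symbols in all. Cebpd was not analysed here. Blood was taken from 8 male SHR rats, the spontaneously hypertensive strain, aged 16 weeks, and each sample was measured on its own Affymetrix RaGene array. The 0 h sample was drawn before anesthesia and served as the control, and the other samples came 1, 2, 3, 6 and 24 h after a silicon-coated thread had closed the middle cerebral artery (MCA). Of 47 arrays, 7 were from 6 h, where 1 rat had no sample, and 8 from every other time point. The occlusion was transient, with the thread withdrawn under a second anesthesia between the 1 h and 2 h samples. All rats had the same surgery, so there were no sham operated animals, and the effects of ischemia, surgery, anesthesia and repeated blood sampling cannot be told apart. A tail vein was the source of all samples except those of 24 h, which were cardiac blood of rats given a lethal dose of anesthetic, so that for the last sample time and site of collection cannot be told apart either. The RNA was from the whole blood cell pellet. In such bulk samples fewer cells of a type and less RNA per cell cannot be told apart, and this holds for every fall and every rise given here.

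Blood myeloid cells arise in the bone marrow from stem cells through a series of steps, each set by a small group of DNA-binding proteins. Runx1 is needed for blood stem cells to form. PU.1, the product of Spi1 and a member of the ETS family, and C/EBP alpha, the product of Cebpa, open the myeloid program and switch on growth factor receptors such as the receptor for granulocyte colony-stimulating factor. Gfi1, a zinc finger repressor, and C/EBP epsilon then govern the making of neutrophils and of their granules. C/EBP beta serves emergency granulopoiesis and inflammatory genes in monocytes. Ets2 is another ETS factor, activated through the Ras pathway. Bcl6 is a repressor known from germinal center B cells and found also in neutrophils and macrophages. Mxd1 (Mad1) pairs with Max in place of Myc and represses Myc targets as cells stop dividing, and it is abundant in maturing granulocytes.

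The values are log2 signals, which the authors made from the arrays by RMA. The mean and SD at each time point are the authors' own, over 8 arrays (7 at 6 h). A change is the mean at 1 time point minus that at another on the log2 scale, so that 1 is a doubling. A gene is called changed where the adjusted p of a limma moderated test over all probe sets, computed here from the means and SDs, is below 0.05. The test takes the arrays as independent although each rat was sampled repeatedly. Signals of different probe sets were not compared with each other, since probes differ in brightness.

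Promoters of 8 of the 9 genes were matched in RefSeq on GRCr8, with 250 bases before and 50 after a transcript start, and Spi1 was not among them. Those of the 3 genes with the largest changes from 0 h are printed here, 5′ to 3′ along the gene's strand, so that their sequence can be read beside the profiles. That of Mxd1 lies at chr4:120675080-120675379 on the minus strand, within the span RefSeq gives the gene, that of Ets2 at chr11:48490807-48491106 on the plus strand and that of Bcl6 at chr11:90358503-90358802 on the plus strand. RefSeq starts Bcl6 at this end of the gene, whereas the rn5 annotation of the array puts it on the minus strand, and the order of the neighbors Lpp, Bcl6, Rtp2, Sst and Masp1 along the chromosome is reversed between these builds. Capitals mark CCAAT in Mxd1 and Bcl6, CACGTG in Bcl6, and in Ets2 the letters GAGGAAGT read on the opposite strand.
Mxd1 promoter: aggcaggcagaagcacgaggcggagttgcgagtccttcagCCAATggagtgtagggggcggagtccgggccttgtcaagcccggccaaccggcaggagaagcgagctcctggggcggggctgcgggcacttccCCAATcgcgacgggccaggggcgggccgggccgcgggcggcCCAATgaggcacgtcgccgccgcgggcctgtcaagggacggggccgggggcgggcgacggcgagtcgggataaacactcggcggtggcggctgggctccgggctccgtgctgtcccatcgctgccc
Ets2 promoter: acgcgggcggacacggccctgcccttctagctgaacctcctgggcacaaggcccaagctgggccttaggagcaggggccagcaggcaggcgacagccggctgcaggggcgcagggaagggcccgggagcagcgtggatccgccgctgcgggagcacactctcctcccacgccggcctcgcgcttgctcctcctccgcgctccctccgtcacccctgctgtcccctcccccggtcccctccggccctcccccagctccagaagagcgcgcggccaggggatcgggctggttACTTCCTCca
Bcl6 promoter: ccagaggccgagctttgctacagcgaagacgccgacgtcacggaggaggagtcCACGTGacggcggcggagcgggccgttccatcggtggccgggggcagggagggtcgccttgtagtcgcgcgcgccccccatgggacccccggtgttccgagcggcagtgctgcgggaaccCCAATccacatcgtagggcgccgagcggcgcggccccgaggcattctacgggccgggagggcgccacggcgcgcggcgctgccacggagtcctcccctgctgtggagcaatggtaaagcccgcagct
In Gfi1 the window at chr14:2187099-2187398 on the plus strand, which like that of Mxd1 lies within the RefSeq gene span and not at its outermost start, held the palindrome to which C/EBP dimers bind, shown in capitals with its flanks.
Gfi1 window: tcctgaccccTTGCGCAAaggaggctcg

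These are matches of letters and not sites shown to be bound. All motifs were searched on both strands. The CCAAT box, TATA box letters TATAAA and the E-box CACGTG, to which Myc, Max and Mxd proteins bind, were in 37.7%, 14.3% and 6.65% of the 27457 promoters of the RefSeq table. CCAAT was at 3 places in Mxd1, 210, 117 and 76 bases before the transcript start, and at 1 place in Bcl6, 77 bases before it. The E-box of Bcl6 began 197 bases before the start. TATAAA was in Cebpa and Cebpb, 35 and 33 bases before the start. GAGGAAGT, to which PU.1 binds, was in 2.44% of promoters and among these genes in Ets2. The C/EBP dimer palindrome TTGCGCAA was in 0.197% of promoters and, of these 8, in Gfi1 alone. The looser C/EBP letters TTGCNNAAT, in 2.63% of promoters, matched Gfi1 too, from base 23 of the transcript, and the STAT letters TTCNNNGAA, in 8.68%, matched Cebpe. The letters CCGGAAGT (ETS), TGTGGTT (RUNX), TGACGTCA (cyclic AMP response), AGAACA (glucocorticoid receptor) and TTCCTNGAA (BCL6) were found in none of the 8 windows. The GC content was 74.0%, 73.0% and 72.3% in Mxd1, Ets2 and Bcl6, against a median of 52.3% in all promoters. It was highest in Cebpb, at 81.0%, and was 68.7% in Cebpa, 57.3% in Gfi1, 56.0% in Cebpe and 34.3% in the Runx1 window.

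**Figure D1:**
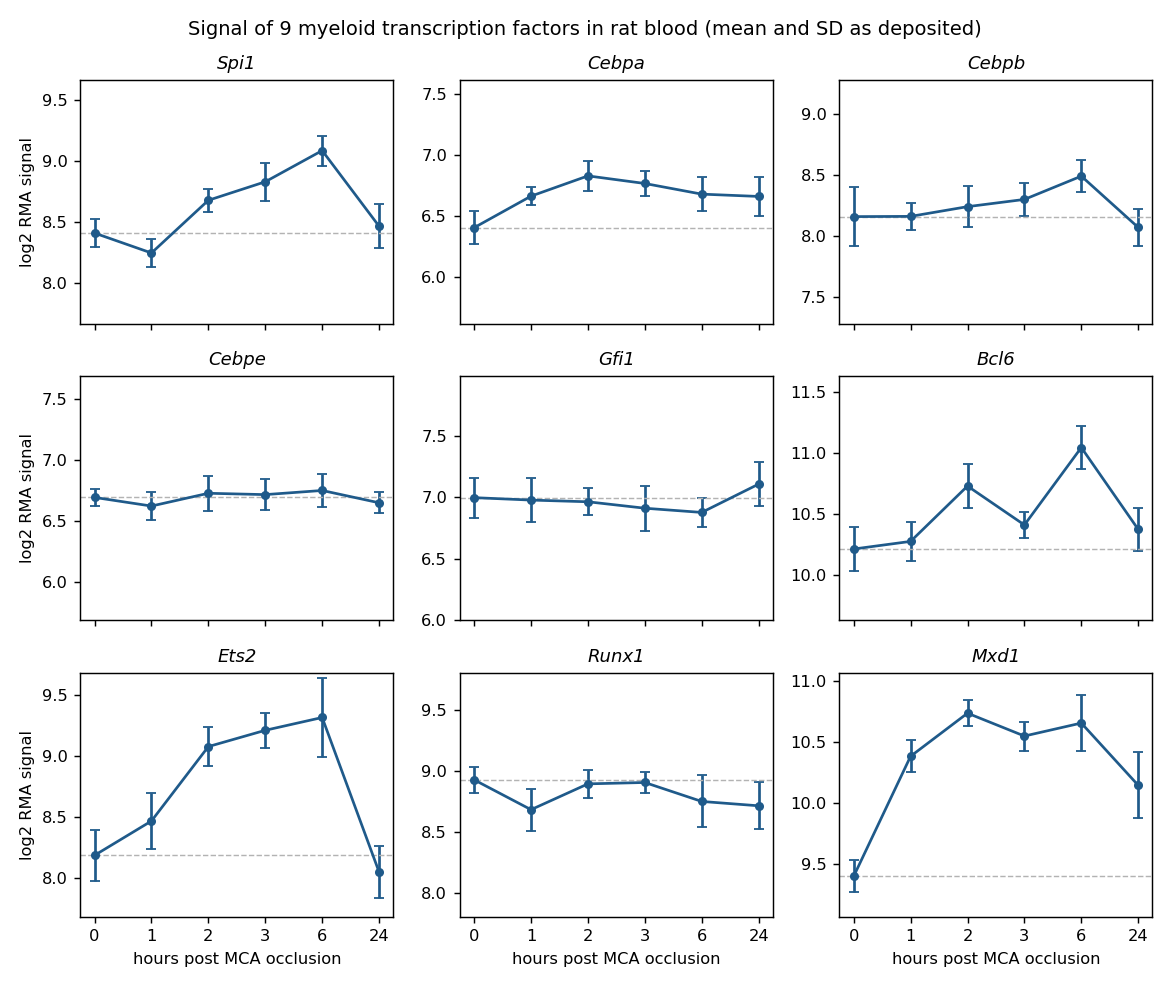
Log2 RMA signal (y axis) of 9 myeloid transcription factors at 0, 1, 2, 3, 6 and 24 hours post MCA occlusion (x axis, time points evenly spaced). Points are the authors' means over 8 arrays (7 at 6 h), bars the authors' SD, and the dashed line the mean at 0 h; all panels span the same log2 range. Ets2, Spi1 and Bcl6 had their highest mean at 6 h and Mxd1 at 2 h, while the means of Cebpe and Gfi1 changed by at most 0.07 and 0.12 from 0 h.

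Expression of Mxd1, Ets2, Bcl6 and Spi1 changed most over the time course. In the F-test over the 6 time points these 4 of the 9 genes had a p below the study's threshold of 5e-07, which 13.5% of all probe sets passed. At an adjusted p below 0.05 the F-test called 7 of the 9, adding Cebpa, Cebpb and Runx1, where 55.5% of all probe sets were called. Cebpa lay just outside the stricter threshold, with a p of 9.75e-07. It was 2.39e-07 without the 24 h samples, when the 5 genes Spi1, Cebpa, Ets2, Bcl6 and Mxd1 and 12.0% of all probe sets passed, 5.61e-06 after centring of the means on their median and 9.42e-06 after their quantile normalization. Cebpe and Gfi1 were not called, with adjusted p-values of 0.353 and 0.145.

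At 1 h the test against 0 h called 4 of the 9 genes, 3 higher and 1 lower, where 37.1% of all probe sets were called, 21.7% higher and 15.4% lower. At 2 h it called 5, all higher, with a background of 40.4% called and 21.7% called higher. The same 5 genes, Spi1, Cebpa, Ets2, Bcl6 and Mxd1, were higher at 3 h, with a background of 46.5% called and 27.3% called higher. At 6 h 6 genes were higher, Cebpb being added, with a background of 41.8% called and 22.5% called higher. By 24 h 3 were called, Cebpa and Mxd1 higher and Runx1 lower, where 31.2% of all probe sets were called, 17.4% higher and 13.9% lower. None of the 9 was called lower at 2, 3 or 6 h, where 18.6%, 19.2% and 19.3% of all probe sets were. Over 1, 2, 3, 6 and 24 h the median change of the 9 genes was 0.00, 0.27, 0.20, 0.33 and 0.06. That of all probe sets was 0.05, 0.05, 0.07, 0.05 and 0.04. So few genes give only a description, and these 5 comparisons share the 0 h samples.

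**Figure D2:**
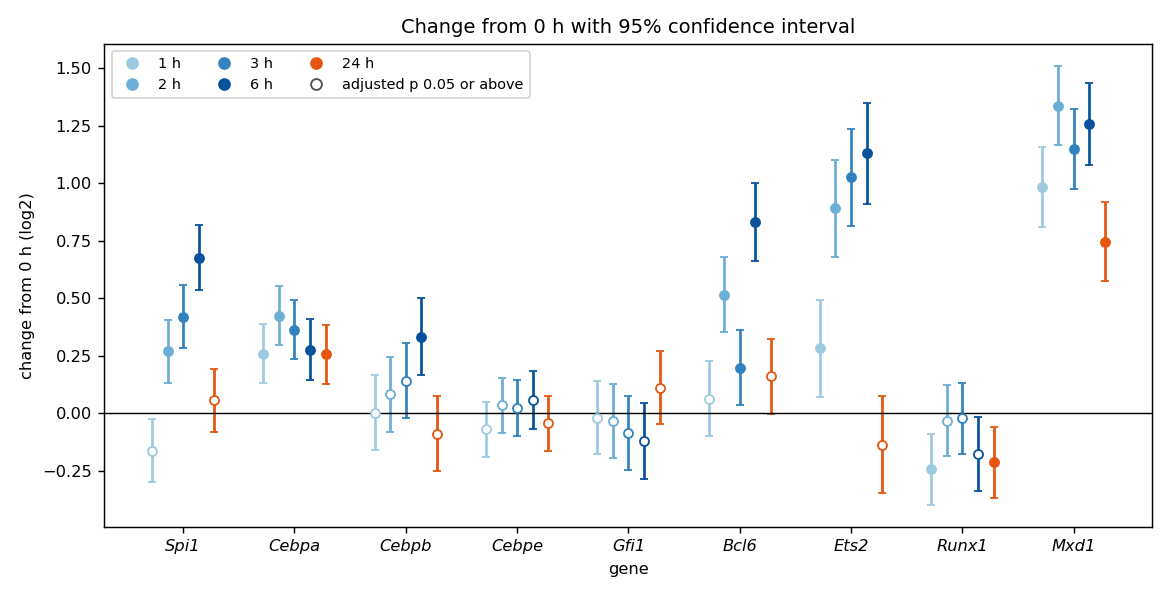
Change of each gene from 0 h on the log2 scale (y axis) at 1, 2, 3, 6 and 24 h, with the 95% confidence interval of the moderated test as bars. Filled points have an adjusted p below 0.05. Mxd1 was above 0 at all 5 times, Ets2, Bcl6 and Spi1 had returned near 0 at 24 h, and the intervals of Cebpe and Gfi1 included 0 throughout.

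Mxd1, the Max partner that opposes Myc, had the largest change from 0 h of the 9 genes at all 5 times. Its mean log2 signal was 9.40 ± 0.13 (authors' SD) before the occlusion and 10.38 ± 0.13, 10.73 ± 0.11, 10.55 ± 0.12, 10.65 ± 0.23 and 10.14 ± 0.27 after 1, 2, 3, 6 and 24 h. Already at 1 h the rise was several times the SD, and the spread between rats was widest at 6 and 24 h. At 2 h expression was 2.53-fold that at 0 h (95% confidence interval 2.24 to 2.85, limma adjusted p = 1.21e-17). It was 1.68-fold at 24 h (adjusted p = 7.11e-09), when 55.8% of the largest log2 change was left. The step from 1 to 2 h was 0.35 (adjusted p = 0.00461), the steps from 2 to 3 h and from 3 to 6 h were -0.19 and 0.11 and not called (adjusted p = 0.261 and 0.593), and from 6 to 24 h expression fell by 0.51 (adjusted p = 1.79e-05). Probe set 10863726 covers Mxd1 between 183023368 and 183042034 of chromosome 4 (rn5, minus strand).

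Ets2 had the second largest rise of the 9 and lost all of it by 24 h. From a mean of 8.18 ± 0.21 at 0 h the signal went to 8.47 ± 0.23, 9.08 ± 0.16, 9.21 ± 0.14, 9.31 ± 0.32 and 8.05 ± 0.22 after 1, 2, 3, 6 and 24 h. The 24 h and 0 h means were the lowest pair and differed by less than their SDs, with a change of -0.14 (95% interval -0.35 to 0.08, adjusted p = 0.332). At 6 h expression was 2.19-fold that at 0 h (1.88 to 2.55, adjusted p = 5.06e-12). The climb came mainly from 1 to 2 h, a step of 0.61 (adjusted p = 6.36e-05). Later steps of 0.13 from 2 to 3 h and 0.10 from 3 to 6 h were within the error, with adjusted p-values of 0.592 and 0.688. From 6 to 24 h it fell by 1.27 (adjusted p = 7.42e-13), the largest step of any of the 9 genes. The change of 0.28 at 1 h was called (adjusted p = 0.0315), and was not called after the means were centred on the median of all probe sets (0.23, adjusted p = 0.0866). The probe set (10750460) is on the plus strand of chromosome 11, rn5, from 39610591 to 39621809.

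Spi1, which encodes PU.1, started late and rose stepwise to 6 h. The means, in order of time from 0 h, were 8.41 ± 0.12, 8.24 ± 0.12, 8.68 ± 0.10, 8.83 ± 0.15, 9.08 ± 0.12 and 8.46 ± 0.18. The lowest mean was thus at 1 h, -0.16 from 0 h, which was not called (adjusted p = 0.0536) but lay near the threshold and was called under 3 alternatives, centring among them (-0.21, adjusted p = 0.0138). After quantile normalization it was -0.06 (adjusted p = 0.534). From 1 to 2 h Spi1 rose by 0.43 (adjusted p = 1.51e-05). The step from 2 to 3 h was 0.15 (adjusted p = 0.245). From 3 to 6 h it rose by another 0.26 (adjusted p = 0.0232, or 0.0843 with the variance of those time points alone). Expression at 6 h was 1.6-fold that at 0 h (1.45 to 1.76, adjusted p = 4.59e-11). By 24 h 8.29% of this log2 change was left, and the change from 0 h of 0.06 was not called (95% interval -0.08 to 0.19, adjusted p = 0.553). Probe set 10837794 covers Spi1 on the plus strand of chromosome 3, rn5, from 86627764 to 86646459.

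Bcl6, the zinc finger repressor, rose at 2 h, fell back at 3 h and rose again to 6 h. In order of time its means were 10.21 ± 0.18, 10.27 ± 0.16, 10.73 ± 0.18, 10.41 ± 0.11, 11.04 ± 0.17 and 10.37 ± 0.17. Each of the 4 steps was larger than the SDs on either side, and each was called. They were a rise of 0.45 from 1 to 2 h (adjusted p = 0.000107), a fall from 2 to 3 h with a change of -0.32 (adjusted p = 0.0142), a rise of 0.63 from 3 to 6 h (adjusted p = 1.02e-06) and a change of -0.67 from 6 to 24 h (adjusted p = 1.66e-08). At 6 h Bcl6 was 1.78-fold its 0 h level (1.58 to 2.0, adjusted p = 1.81e-11). The lowest of the later means, at 1 h, was 0.06 above 0 h and not called (adjusted p = 0.568). The change of 0.20 at 3 h was called (adjusted p = 0.0416) and was not called after centring (0.16, adjusted p = 0.112). That of 0.16 at 24 h was not called (adjusted p = 0.124), and was after quantile normalization of the means (0.22, adjusted p = 0.0398). Probe set 10751931 spans 80454009 to 80477192 on the minus strand of chromosome 11, rn5.

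The C/EBP factors differed among themselves. Cebpa rose early and did not return to its 0 h mean, with means of 6.40 ± 0.13 before the occlusion and 6.66 ± 0.07, 6.83 ± 0.12, 6.77 ± 0.10, 6.68 ± 0.14 and 6.66 ± 0.16 at the 5 later times in order. All 5 later means were above that at 0 h, each called, and at 2 h expression was 1.34-fold (1.23 to 1.47, adjusted p = 3.87e-07). No step between neighboring later time points was called, and at 24 h the change was 0.26 (adjusted p = 0.00197), 60.3% of the largest. Cebpb was at 8.16 ± 0.24 before the occlusion and 8.16 ± 0.11, 8.24 ± 0.17, 8.30 ± 0.14, 8.49 ± 0.13 and 8.07 ± 0.15 afterwards. It was called higher at 6 h alone, by 1.26-fold (1.12 to 1.41, adjusted p = 0.00119), and fell by 0.42 from 6 to 24 h (adjusted p = 0.000139). After quantile normalization its values at 2 and 3 h were called too, at 0.20 and 0.26 (adjusted p = 0.044 and 0.00854). Cebpe ranged from 6.62 at 1 h to 6.75 at 6 h, with SDs of 0.07 to 0.14, and none of its changes was called. Its 95% interval at 6 h was -0.07 to 0.18. On rn5, Cebpa (10706131) lies on the plus strand of chromosome 1 from 92493857 to 92495245, Cebpb (10842469) on the plus strand of chromosome 3 from 170577328 to 170579365, and Cebpe (10783645) on the minus strand of chromosome 15 from 37241081 to 37242479.

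Gfi1, which holds neutrophil precursors on course and represses monocyte genes, was not called against 0 h at any time. Its means by time were 7.00 ± 0.16, 6.98 ± 0.18, 6.96 ± 0.11, 6.91 ± 0.19, 6.88 ± 0.12 and 7.11 ± 0.18. All later means lay within the 0 h SD of the 0 h mean. The 95% interval of the change was -0.29 to 0.04 at 6 h and -0.05 to 0.27 at 24 h. From 6 to 24 h the change was 0.23 (adjusted p = 0.0391), a call lost when the means were centred (0.0514), when they were quantile normalized (0.0686) and with the variance of these time points alone (0.0544). Its probe set (10771042) lies at 3060444 to 3069821 on the plus strand of chromosome 14, rn5.

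Runx1, which is needed for blood stem cells to form, was the single gene of the 9 called lower than at 0 h. Before the occlusion its mean was 8.93 ± 0.11, and later means were 8.68 ± 0.17, 8.89 ± 0.12, 8.90 ± 0.09, 8.75 ± 0.21 and 8.71 ± 0.19 in order of time. The means at 2 and 3 h were -0.03 and -0.02 from that at 0 h, well within the SDs. The change was -0.24 at 1 h (0.844-fold, 95% interval 0.759 to 0.939, adjusted p = 0.0104) and -0.21 at 24 h (adjusted p = 0.0296). Neither call held after quantile normalization of the means (-0.16 with adjusted p = 0.109 and -0.14 with adjusted p = 0.178). At 6 h the change of -0.18 was not called (adjusted p = 0.0665), and was after centring (-0.21, adjusted p = 0.0333). Probe set 10753222 spans 36371332 to 36460969 on the minus strand of chromosome 11, rn5.

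Between neighboring time points the calls among the 9 genes were most numerous from 6 to 24 h, with 4 each from 0 to 1 h and from 1 to 2 h. From 0 to 1 h these were Cebpa, Ets2 and Mxd1, higher, and Runx1, lower, where 37.1% of all probe sets were called, and Mxd1 had its largest step there. From 1 to 2 h they were Spi1, Ets2, Bcl6 and Mxd1, all higher, where 8.78% of all probe sets were called, 4.66% higher and 4.11% lower. From 2 to 3 h it called Bcl6 alone, as lower, with a background of 3.53%, made of 1.9% higher and 1.62% lower. From 3 to 6 h it called Spi1 and Bcl6 higher, with a background of 4.78%, made of 2.34% higher and 2.44% lower. From 6 to 24 h it called 6, with Spi1, Cebpb, Ets2, Bcl6 and Mxd1 lower and Gfi1 higher, where 18.9% of all probe sets were called, 10.2% higher and 8.68% lower. After centring and after quantile normalization this step was tied with that from 1 to 2 h, at 5 calls each. With the variance of the compared time points alone it was tied with that from 0 to 1 h, also at 5. The median step of the 9 genes was 0.21 from 1 to 2 h and -0.42 from 6 to 24 h, against -0.01 and 0.00 over all probe sets. Sampling site changed between 6 and 24 h for every one of these genes.

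Lists of marker genes were followed beside the transcription factors. All 8 neutrophil markers, such as S100a8 and Cxcr2, were called higher at each time, with median changes of 1.00, 1.49, 1.43, 1.82 and 0.85 in order of time. The lowest of their changes was 0.80 at 1 h and 0.59 at 24 h. Of 8 monocyte markers 6, 5, 5, 5 and 5 were called lower and 0, 2, 3, 3 and 0 higher in order of time, with medians of -0.64, -0.71, -0.67, -0.80 and -0.53. Among them Adgre1 was at -1.90 and Nr4a1 at -1.48 at 6 h, whereas Cd14 and Cd163 were higher at 3 h, at 1.84 and 0.21 (adjusted p = 1.04e-13 and 0.0118). All 8 T cell markers were lower at each time, with a median of -1.25 at 6 h, and 6 to 8 of 8 B cell markers, with a median of -2.07 at 3 h and -0.53 at 24 h. The NK cell median was -0.83 at 6 h. The platelet and erythroid medians stayed between -0.13 and 0.28. The 4 neuronal markers had median changes between 0.06 and 0.10. The 0 h signals of the 6 erythroid markers ran from 9.28 to 13.39 and those of the neuronal markers from 4.54 to 6.20, which describes these probe sets and, given the differences in probe brightness, is no test of the labelled tissue. Over all probe sets the median lay between 0.04 and 0.07. Spi1, Ets2, Bcl6 and Mxd1 were thus raised at 2, 3 and 6 h, when the neutrophil list was raised too. That list was raised at 1 and 24 h as well, when Mxd1 was called higher at both times and Ets2 at 1 h alone. At 1 and 24 h Spi1 was at -0.16 and 0.06 and Bcl6 at 0.06 and 0.16, none of them called. The part of cell numbers in the changes of these genes was not tested.

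**Figure D3:**
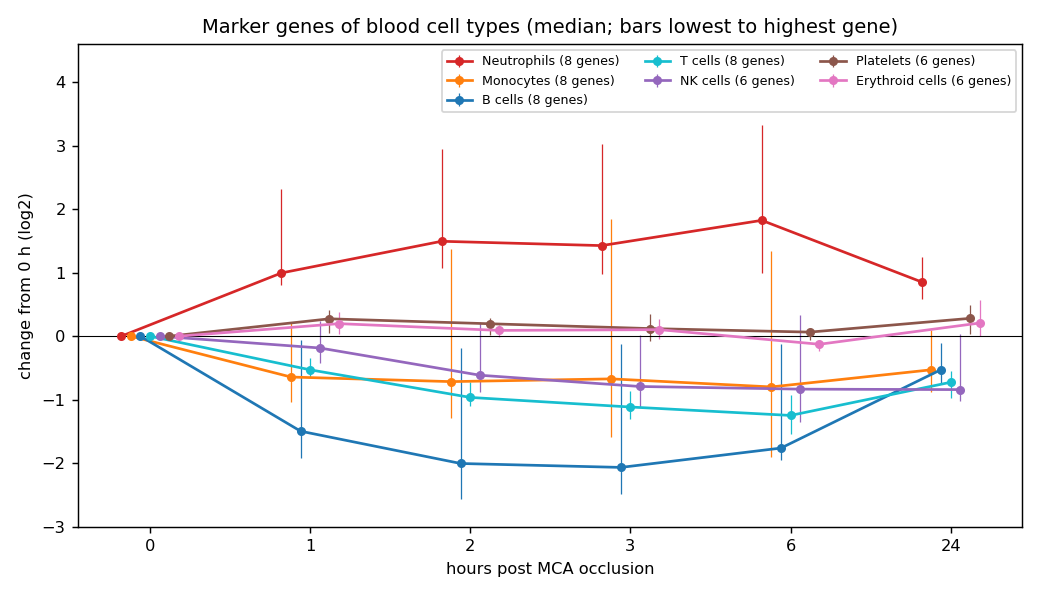
Median change from 0 h (y axis, log2) of lists of marker genes of blood cell types at each time post MCA occlusion (x axis, hours, evenly spaced and slightly offset). Bars run from the lowest to the highest gene of a list. The neutrophil list was above 0 throughout, with a median of 1.82 at 6 h, and the B cell and T cell lists were below 0 at every time.

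The other ETS factors in the list were mainly lower than at 0 h, whereas Spi1 and Ets2 were higher at 2, 3 and 6 h. Of 12 measured, 7, 8, 9, 9 and 8 were called lower at 1, 2, 3, 6 and 24 h, and 1, 1, 2, 1 and 1 higher, with a median of -0.49 at 6 h. Over all probe sets 15.4%, 18.6%, 19.2%, 19.3% and 13.9% were called lower at these times, and 21.7%, 21.7%, 27.3%, 22.5% and 17.4% higher. At 24 h, 5 of the 12 were called after quantile normalization, in place of 9. Spib, the PU.1 relative of B cells and plasmacytoid dendritic cells, was at -1.17 at 2 h (adjusted p = 2.14e-14). Ets1, abundant in lymphocytes, was at -0.97 at 6 h (adjusted p = 8.1e-15), and Fli1, known from megakaryocytes, at -0.54 at 6 h (adjusted p = 1.06e-10). Erg, an ETS factor of stem cells and endothelium, rose by 1.62 at 3 h (adjusted p = 2.31e-18), and was still at 0.28 at 24 h (adjusted p = 0.0254). The PU.1 relative Spic was called at 3 h alone, at 0.33 (adjusted p = 0.00426). The monocyte factors Klf4 and Irf8, a PU.1 partner, were lower at all 5 times, with -1.31 and -1.07 at 2 h (adjusted p = 1.12e-15 and 2.49e-11).

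Of 8 partners and relatives of the C/EBP factors, all were called at 2 h, 5 higher and 3 lower, with a median change of 0.34. The background at 2 h was 40.4% of all probe sets called, 21.7% higher and 18.6% lower. Trib1, which directs C/EBP alpha to degradation, rose by 0.92 at 2 h (adjusted p = 1.1e-12) and was at -0.10 at 24 h (adjusted p = 0.356). Trib2, its relative with the same known action, was at -1.14 at 3 h (adjusted p = 2.46e-11). Nfil3, a basic leucine zipper repressor, rose by 0.86 at 3 h (adjusted p = 8.04e-17) and Batf by 0.53 at 2 h (adjusted p = 6.24e-08). Cebpg, a C/EBP member without an activation domain, was at -0.36 at 2 h (adjusted p = 0.0016).

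In the Myc, Max and Mxd network Mxd1 had the largest change of those measured. Of its 8 other members 4 were called at 2 h, 2 in each direction, with a median change of 0.04. Over all probe sets 40.4% were called at 2 h, 21.7% higher and 18.6% lower. Myc itself was at -0.75 at 6 h (adjusted p = 8.22e-10) and -0.55 at 24 h (adjusted p = 2.38e-06), so that Mxd1 and Myc stood on opposite sides of their 0 h level. Max, the shared partner, rose by 0.26 at 6 h (adjusted p = 1.23e-05). Mxi1, another repressing Max partner, rose by 0.30 at 2 h (adjusted p = 2.56e-05), and Mxd3 was called higher at 1 and 3 h, by 0.16 and 0.14 (adjusted p = 0.0322 and 0.0487), though not in the F-test (adjusted p = 0.183). Mxd4 was not called at any time (F-test adjusted p = 0.24). Mga, a large Max-binding protein, was at -0.65 at 2 h (adjusted p = 4.3e-08).

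Among 5 relatives and partners of Runx1, 2, 2, 2, 3 and 3 were called lower at 1, 2, 3, 6 and 24 h and 1, 0, 0, 0 and 0 higher. After quantile normalization 1 in place of 2 was called at 3 h and 1 in place of 3 at 24 h. Among 8 relatives and corepressors of Gfi1 and Bcl6, 4, 4, 2, 3 and 3 were called lower and 2, 1, 1, 1 and 0 higher, with 3 in place of 5 called at 2 h after quantile normalization. Cbfb, the subunit that strengthens DNA binding of all RUNX proteins, was at -0.59 at 2 h (adjusted p = 1.01e-06), Runx2 at -0.46 at 6 h (adjusted p = 4.12e-05) and Runx3 at -0.30 at 6 h (adjusted p = 3.08e-05). Kdm1a, the histone demethylase that Gfi1 recruits, was at -0.48 at 1 h (adjusted p = 1.65e-07). The Bcl6 corepressor Bcor was at -0.48 at 1 h (adjusted p = 2.9e-06), and Ncor1 was not called (F-test adjusted p = 0.363). Zbtb16 (PLZF), a glucocorticoid responsive relative of Bcl6, rose by 1.20 at 2 h (adjusted p = 1.08e-14). Of all 58 related regulators measured, 15, 15, 17, 12 and 6 were called higher and 21, 22, 21, 22 and 23 lower at 1, 2, 3, 6 and 24 h, together 36, 37, 38, 34 and 29 of the 58, or 62.1%, 63.8%, 65.5% and 58.6% at the first 4 times. Over all probe sets 37.1%, 40.4%, 46.5%, 41.8% and 31.2% were called. Among the remaining blood cell regulators Id1, an inhibitor of helix-loop-helix factors, rose by 1.21 at 3 h (adjusted p = 3.69e-15), and the nuclear receptors Rxra and Rara rose by 1.02 at 2 h (adjusted p = 2.18e-15) and 0.71 at 6 h (adjusted p = 9.38e-08).

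**Figure D4:**
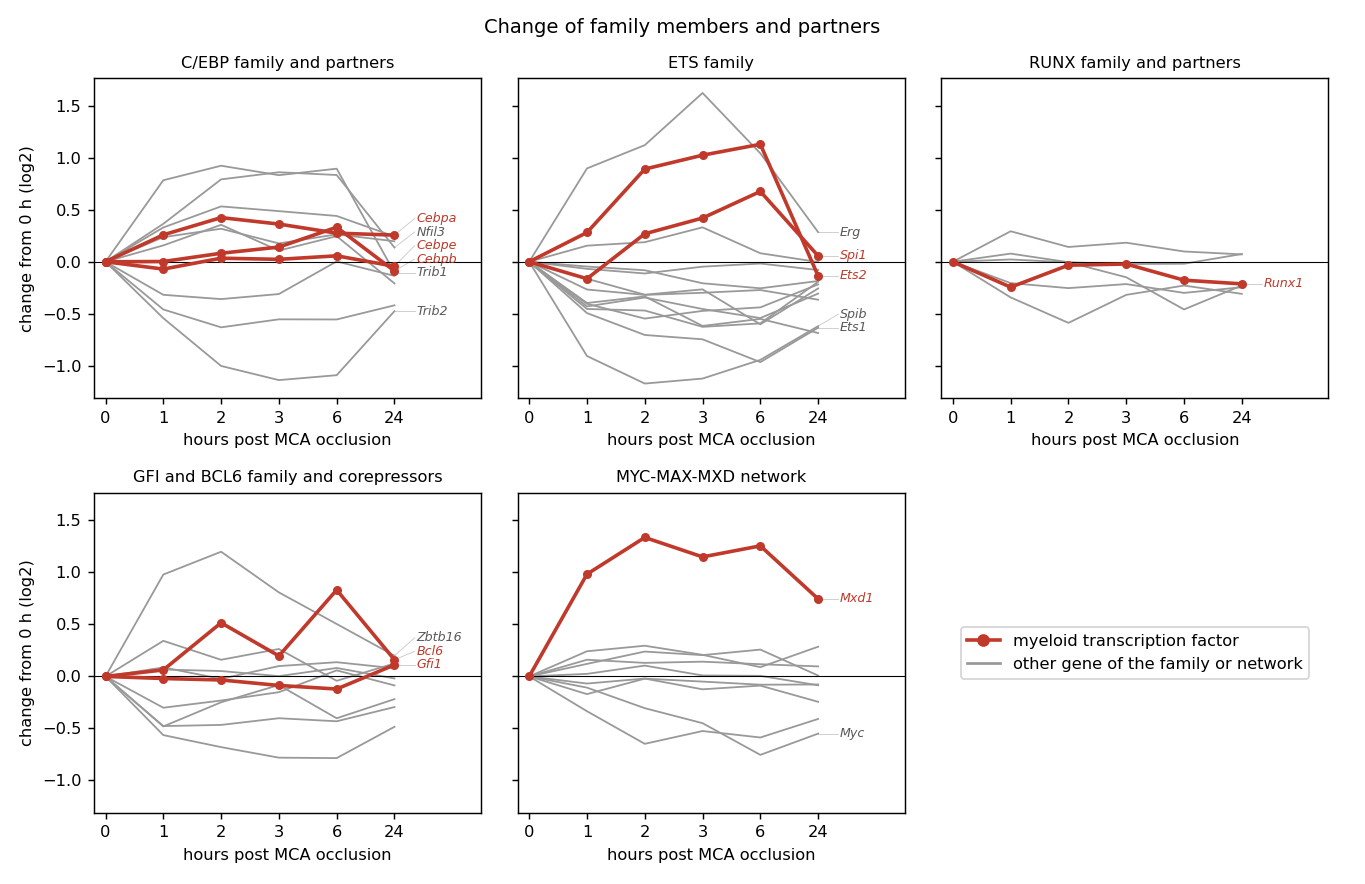
Change from 0 h (y axis, log2) of the myeloid transcription factors (red) and of the other listed genes of their families or networks (grey) at each time post MCA occlusion (x axis, hours, evenly spaced). Some grey lines are named. Spi1 and Ets2 ran above 0 at 2, 3 and 6 h while most ETS genes ran below it, and Mxd1 ran above all genes of its network.

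Receptors and signal carriers that act upstream of these factors included some of the larger changes. Of 11 measured, 6 were called higher and 2 lower at 6 h, with a median change of 0.44. The background at 6 h was 22.5% of all probe sets called higher and 19.3% lower. Csf3r, the receptor for granulocyte colony-stimulating factor and also on the neutrophil list, was 1.95 above 0 h at 6 h (adjusted p = 1.91e-20), and Csf2rb, the shared beta chain of the receptors for GM-CSF and IL-3, 2.27 (adjusted p = 4.22e-19). Stat3, which carries the signal of the granulocyte receptor and of IL-6, rose by 1.24 at 3 h (adjusted p = 6.63e-20). Csf1r, the receptor of the monocyte growth factor and a known PU.1 target, went the other way and was at -1.05 at 6 h (adjusted p = 2.04e-08), as did Nr3c1, the glucocorticoid receptor, at -0.66 (adjusted p = 2.93e-08).

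Known targets of PU.1 and the C/EBP factors did not move as a block. Of 10 such genes measured, for receptors, adhesion proteins, the phagocyte oxidase and the cytokine Il1b, 6 were called higher and 4 lower at 6 h. Their median change at 6 h was 0.81, and over all probe sets 22.5% were called higher and 19.3% lower. Itgam, the alpha chain of CD11b/CD18, rose by 1.12 at 6 h (adjusted p = 1.03e-15). Cybb, the catalytic subunit of the phagocyte oxidase, was at -0.58 at 2 h (adjusted p = 1.27e-05), and Itgb2, the partner chain of Itgam, at -0.30 at 3 h (adjusted p = 0.00173). Primary granule genes, which are made at the promyelocyte stage under C/EBP control, moved little, with the changes of Mpo, Elane, Prtn3 and Ctsg between -0.06 and 0.34 at all times. The highest was that of Elane at 6 h (adjusted p = 7.98e-05), and Prtn3 was not called at any time. The 0 h signals of these genes ran from 5.70 to 6.55. Signal over background was not assessed, so that steady expression and a lack of signal were not told apart. Of 6 secondary and tertiary granule genes, which need C/EBP epsilon, 5 were called higher at 2 h, with a median change of 1.45. Over all probe sets the share called higher at 2 h was 21.7%. Mmp9 was at 2.75 and Camp at 2.11 at 2 h (adjusted p = 1.11e-17 and 3.06e-14), and Lcn2 reached 2.81 at 6 h (adjusted p = 5.01e-12). Ngp rose by 1.08 at 2 h and was below its 0 h level at 24 h, at -0.90 (adjusted p = 0.000163 and 0.00259). Ltf showed no call, with changes of at most 0.06 (F-test adjusted p = 0.974). Its 0 h signal was 5.86, so that the same limit holds for it.

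The genes whose profile was most like that of the 4 strongest members were found by the Euclidean distance over the 5 changes from 0 h, in log2 units, among 20437 probe sets with 1 gene symbol. Closest to Mxd1 were Cyp4f18 (distance 0.18), Zfp516 (0.18) and Padi4 (0.25), which were at 1.45, 1.26 and 1.45 at 2 h. Closest to Ets2 were Tle3 (0.23), Napsa (0.30) and Stat3 (0.36), with 0.97, 1.05 and 1.07 at 6 h. Gbe1, Ppp4r1 and Hnrnph2 were closest to Spi1, at distances of 0.14, 0.15 and 0.15. Their changes at 1 h were -0.15, -0.17 and -0.14. The search used the 1 h change, so that this sign was set by the choice of genes and is no separate result. Clec2e, Nck1 and RGD1562136 were closest to Bcl6, each at a distance of 0.27. At 2, 3 and 6 h their changes were 0.36, 0.32 and 0.85 for Clec2e, 0.56, 0.18 and 0.68 for Nck1 and 0.47, 0.43 and 0.93 for RGD1562136, and their steps from 2 to 3 h were not tested.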

How the data were processed

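Blood RNA of 8 SHR rats was measured at 6 time points on 47 Affymetrix RaGene 1.0 ST arrays (8 arrays per time point, 7 at 6 h). The authors summarized the arrays by RMA and deposited 1 table of 27596 probe sets, annotated on rn5, with the log2 mean and the SD (in log2 units) per time point. The labels name limma, with the version not given in the sources used here. The table also holds the authors' fold changes, p-values and FDRs, which were not used, and 47 columns of single arrays, named by running numbers that no sample label gives, which were not assigned to samples by their order and were not used. The deposited means ranged from 2.29 to 13.6, the number of arrays limits precision, and signal over background was not assessed.

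Changes were tested with limma's moderated test (limma 3.58.1, R 4.3.3), computed from the means and SDs with a variance pooled over the 6 time points (41 residual degrees of freedom), two-sided, with Benjamini-Hochberg adjustment over all probe sets and calls below an adjusted p of 0.05. The test was checked on simulated data. Each symbol was represented by its probe set with the highest mean. Named genes were all those looked for, the genes with the largest called changes in each list of relatives, partners, upstream receptors, targets and cell markers, genes whose role bears on a member, and the 3 nearest profiles, except that some results are not reported here by name. The genes and lists were chosen with earlier results of these data known. Lists overlap, and Csf3r, Csf1r, Cd14, Mmp8 and Mmp9 are on more than 1. Promoter sequences are from RefSeq, GRCr8, and no position was converted between it and rn5. Alternatives were ordinary variance, an intensity trend with robust prior, variance of the compared time points alone, centring, quantile normalization of the means, leaving out the lowest 25% of probe sets, and an F-test without the 24 h samples.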

Additional observations from a re-analysis of the deposited data

How the results depend on the processing

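Of 66 recomputed counts of called genes, 65 stayed within 1.5 times the value given. The exception was the step from 3 to 6 h, where 1 gene in place of 2 was called with the variance of the compared time points alone (Spi1 was lost). Among the changes from 0 h and the called steps of the 9 genes, those with a different sign under another setting were all small and not called: after centring of the means on their median Cebpb at 1 h was -0.0469 and Cebpe at 3 h was -0.0153, and after quantile normalization of the means Cebpe at 3 h was -0.0141, Runx1 was 0.0664 at both 2 and 3 h, and Cebpb at 24 h was 0.0116. Of 448 other recomputed values, 417 kept their direction and call or, for the counts in gene lists, stayed within 1.5 times the value given. With an ordinary variance or an intensity trend and robust prior, which were run for the 9 transcription factors and not for the gene lists, no call or sign changed among the same changes and steps. Each of the 9 transcription factors had 1 probe set, so that averaging probe sets gave the same values for them, and for the genes of the lists no averaging was run. No paired analysis was possible because the single-array columns are named by running numbers that no sample label gives and were not assigned to rats and time points by their order, and the pairing of samples from 1 rat is therefore not part of any test. No time point was tested without single rats for the same reason.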
